A study of Mus musculus with 2 samples.

Results

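The immediate-early genes described here are 10 genes, Fos, Fosb, Jun, Junb, Egr1, Egr3, Atf3, Nr4a1, Dusp1 and Ier2, taken by symbol from the 31053 genes of both count matrices. Their values were read in every barcode with at least 1000 UMIs (counted RNA molecules) and at most 17% mitochondrial UMIs, which left 10107 WT and 7604 CD169-DTR cells. Both libraries hold CD45.2-positive, propidium iodide-negative cells that were sorted from the brains of mice bearing GL261, a mouse glioma cell line, at 10 dpi. The labels give both groups a C57BL/6 strain background. The WT group had the genotype CD169-DTR wild type. The CD169-DTR group, of genotype CD169-DTR hetero type, carried the diphtheria toxin (DT) receptor in 1 copy of Siglec1, the gene of the macrophage receptor CD169, so that DT kills cells expressing it. All mice were males of 8 to 12 weeks, received 100000 GL261 cells, and were given 40 ng/g DT both 1 day before and 4 days after the injection, the WT group included. Tissue was perfused, digested with collagenase and DNase, and enriched on Percoll in both groups. Each library was pooled from 3 mice, and there is 1 library per group. The spread between mice is therefore unknown, no test was possible, and each 95% interval covers counting error only. How far WT and CD169-DTR differ through genotype, and how far through the preparation of these samples, cannot be told apart.

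Immediate-early genes are transcribed within minutes of a stimulus, without the need for new protein, from signals that pass through MAP kinases to factors such as SRF, the ternary complex factors and CREB. Most of the 10 encode transcription factors, which then switch on later genes, while others feed back on the signal. In microglia, the resident macrophages of the brain, and in other leukocytes they are induced by activating signals, and they are also known to be induced while tissue is dissociated into single cells.

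The promoter sequences were read because the 10 genes differed between the libraries in the same direction in microglia, as described further on, and because CREB sites are a known feature of this gene class. RefSeq windows of GRCm38.p6 were found for 7 members, and the 250 bases before each RefSeq start were searched. For Fosb, Atf3, Nr4a1 and Dusp1 this start lies inside the annotated span of the gene. The core letters of a CREB site, TGACG, on either strand, was in 6 of the 7 windows (Fos, Fosb, Junb, Atf3, Nr4a1 and Dusp1, not Jun) and in 17.8% of all 32851 windows of this length. The full palindromic CRE, TGACGTCA, which holds this core on each strand, was in 1 of the 7 (Dusp1) and in 1.55% of all windows. The AP-1 site TGACTCA was in 0 of the 7 and in 4.46% of all, the CArG box bound by SRF in 0 and in 1.47%, and TATAAA on the gene's strand in 1 (Fos) and in 7.59%. A match is a run of letters and not a measured binding site. A count of 0 holds for these 250 bases and these letters only, and sites further away or with other letters were not searched. The windows of Fos, Junb and Nr4a1, which overlap no annotated exon, and the stretch around the CRE of Dusp1 show where the matches lie. Capitals mark TGACG, its reverse complement CGTCA, the whole CRE and TATAAA.
Fos, chr12:85473640-85473889, plus strand: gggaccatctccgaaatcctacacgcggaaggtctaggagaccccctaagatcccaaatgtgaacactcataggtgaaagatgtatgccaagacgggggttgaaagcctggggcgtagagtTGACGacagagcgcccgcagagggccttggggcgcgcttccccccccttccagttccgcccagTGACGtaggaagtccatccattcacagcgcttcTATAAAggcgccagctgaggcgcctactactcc
Junb, chr8:84978749-84978998, minus strand: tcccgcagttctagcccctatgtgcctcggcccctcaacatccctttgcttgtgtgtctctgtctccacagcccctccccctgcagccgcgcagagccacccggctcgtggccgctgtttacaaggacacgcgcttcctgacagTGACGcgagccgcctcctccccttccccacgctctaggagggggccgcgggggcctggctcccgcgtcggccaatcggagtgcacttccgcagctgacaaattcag
Nr4a1, chr15:101266596-101266845, plus strand: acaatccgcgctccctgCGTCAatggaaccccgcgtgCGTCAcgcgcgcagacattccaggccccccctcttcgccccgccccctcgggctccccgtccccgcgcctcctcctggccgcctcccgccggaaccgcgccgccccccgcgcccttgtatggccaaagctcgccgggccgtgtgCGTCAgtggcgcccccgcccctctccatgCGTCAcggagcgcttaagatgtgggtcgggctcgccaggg
Dusp1, chr17:26508599-26508624, minus strand: tagggcgggTGACGTCAccgcccggt
Nr4a1 held 4 cores, which start 233, 213, 69 and 40 bases before its RefSeq start, and Fos held 2, at 129 and 66 bases. The CRE of Dusp1 starts 143 bases before its RefSeq start. Whether these matches bear on the levels was not tested.

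The libraries held 101808996 (WT) and 84065489 (CD169-DTR) UMIs, with a median of 7776 and 8099.5 UMIs per cell, and 21 barcodes occurred in both. Cells were grouped in clusters found without the 10 genes and the other listed genes among the variable genes, and the clusters were named from marker genes. This gave 4760 WT and 5388 CD169-DTR microglia, 2266 and 724 macrophages, 1175 and 242 dendritic cells (DCs), 471 and 217 T cells, 331 and 86 NK cells, 74 and 124 B cells, and 169 and 194 granulocytes. Every marker of each class was higher in that class than in the other cells in both libraries, except 1 of 14 DC markers. The clusters were named from these same markers, so this describes the labels and is not an independent check of them. Levels are given as CPM, which are UMIs per 1000000 UMIs of a class, summed over its cells, and are compared within a gene only. Siglec1, the gene whose cells the model depletes, was at 37.5 CPM in WT and 11.9 CPM in CD169-DTR macrophages. In microglia Siglec1 was at 19.2 CPM in WT and 5.62 CPM in CD169-DTR. Estimated free RNA was 1.81% of a median WT cell and 1.07% of a median CD169-DTR cell. It could hold at most 5.39% of any member's level in microglia or macrophages, and up to 12.9% for Atf3 in T cells.

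The orders that follow are among these 7 classes and leave out plasmacytoid DCs, endothelial and choroid plexus cells, some of which lay above or below them. Granulocytes, short-lived phagocytes that enter from blood, held the highest level of the 7 for 6 of the 10 genes in each library, while microglia held the lowest level of 4 in WT (Fos, Fosb, Dusp1 and Ier2) and of 2 in CD169-DTR (Nr4a1 and Dusp1). Granulocytes were also the shallowest of the 7, with median depths of 2924 (WT) and 3629 UMIs (CD169-DTR). Macrophages of 1000 to 3000 UMIs held more Fos than granulocytes (2670 and 2906 CPM) and less Dusp1 (1147 and 646). How far depth enters the order of the classes was not tested. Fos, which encodes a subunit of the AP-1 dimer, was at 2480 CPM in WT and 2076 in CD169-DTR granulocytes. In macrophages it was at 1672 and 1457, in DCs at 1170 and 1203, in B cells at 805 and 1038, in NK cells at 768 and 783, in T cells at 656 and 953, and in microglia at 652 and 867. Granulocytes, macrophages and DCs thus kept the same order in both libraries. The intervals of the lower classes overlapped for B and NK cells in WT (733 to 882 and 732 to 807), for T cells and microglia in WT (631 to 681 and 644 to 659) and for T cells and B cells in CD169-DTR (905 to 1002 and 962 to 1118). Fosb, which encodes another Fos protein, was the most even of the 10 over the 7 classes. Its highest level was 1.70 times its lowest in WT and 1.45 times in CD169-DTR, where T cells (365) and DCs (346) led the 7 with overlapping intervals.

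Jun, the partner of Fos in AP-1, was highest of the 7 in macrophages in WT, at 2188 CPM against 1805 in microglia, and highest in microglia in CD169-DTR, at 2384 against 1799 in macrophages. T cells were lowest in both (1138 and 1223). Junb, which encodes a further Jun protein, stood at 3511 and 4077 in granulocytes. The other 6 of the 7 classes lay between 875 and 1551 in WT and between 1142 and 1493 in CD169-DTR. Atf3, a stress-induced member of the ATF/CREB family that pairs with AP-1 proteins, separated myeloid cells from lymphocytes. It was at 1749 and 1159 in granulocytes, 959 and 748 in macrophages, 474 and 561 in DCs and 452 and 674 in microglia. In T, NK and B cells it lay between 83.9 and 164.

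Egr1 and Egr3 encode zinc-finger factors of the same family and had different orders. Egr1 was at 572 CPM in WT granulocytes and 457 in WT microglia, and at 475 and 600 in CD169-DTR, so that microglia held the most in CD169-DTR. Macrophages held 221 and 218, and T cells were lowest (173 and 162). Egr3 was highest in B cells, at 84.5 and 95.5, although these values rest on 48 and 64 UMIs. Microglia held 28.3 and 42.7, and macrophages only 5.52 and 5.90. Egr3 was therefore the member with the widest range in CD169-DTR, at 20.5 times between B cells and NK cells, the latter with 3 UMIs in all.

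Nr4a1 encodes an orphan nuclear receptor that is induced by antigen-receptor signals in lymphocytes. It was at 604 and 686 CPM in granulocytes and at 163 and 169 in macrophages, and microglia were at 69.0 and 96.7. Dusp1, a phosphatase that switches off MAP kinases, ranged most widely in WT: granulocytes held 3370, macrophages 763 and microglia 173, which is a range of 19.5 times. In CD169-DTR the same classes held 2584, 594 and 285. Ier2, a small nuclear protein of the immediate-early response, was nearly even, from 265 in microglia to 461 in DCs in WT and from 341 in macrophages to 673 in granulocytes in CD169-DTR. In WT its 2 highest classes, DCs and granulocytes (431), had overlapping intervals.

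**Figure D1:**
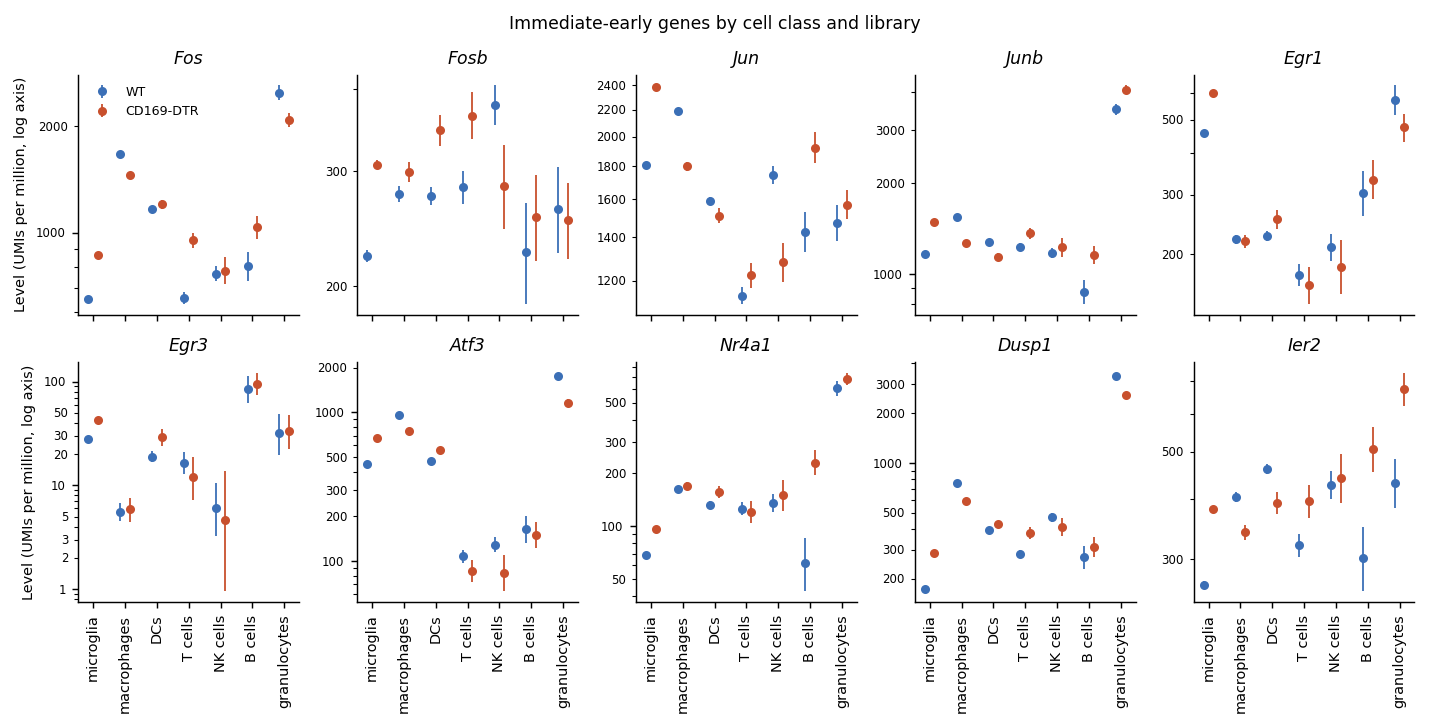
Level of each of the 10 genes (CPM, log axis, with a scale of its own in each panel) in 7 cell classes of the WT and CD169-DTR libraries, with exact Poisson 95% intervals for counting error. Granulocytes are highest for Dusp1 (3370 and 2584) and Junb (3511 and 4077), and Egr3 is lowest in macrophages and NK cells.

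The share of cells with at least 1 UMI, was taken after every cell was thinned to 3000 UMIs, and its order could differ from that of the levels. Jun was found in 80.0% of WT and 84.1% of CD169-DTR microglia, and Fos in 51.1% and 56.7%. In macrophages Jun was found in 88.8% and 86.0% and Fos in 84.2% and 81.8%. Jun in CD169-DTR was thus found in fewer microglia than macrophages although its level was higher in microglia, so no order between classes is read from these shares. Dusp1 was in 23.5% and 33.3% of microglia, 62.3% and 62.1% of macrophages and 93.6% and 93.8% of granulocytes. Egr3 was in 4.84% and 6.84% of microglia and in 0.971% and 1.17% of macrophages. For comparison, choroid plexus cells of the same sort held Jun in 15.3% and 23.1%, Dusp1 in 7.64% and 8.28% and Egr3 in 0% and 0.592% of cells. Their median depths were 14588 and 12530 UMIs, against 7665 and 7868.5 in microglia. Estimated free RNA was 5.68% and 3.51% of their Jun level and 9.52% and 4.25% of their Dusp1 level. Their shares for these genes are therefore not a measure of free RNA. The thinned cell is a random draw, and 194 WT and 153 CD169-DTR microglia, 310 and 38 macrophages and 91 and 49 granulocytes with fewer UMIs were left out. Without thinning Dusp1 was in 37.5% and 48.1% of microglia.

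Few cells lacked all 10 genes. Among the thinned cells, 3.66% of WT and 2.62% of CD169-DTR microglia held none of them, against 0.0511% and 0.146% of macrophages. The median microglial cell held 11 UMIs of the 10 genes in WT and 15 in CD169-DTR, with 10th and 90th percentiles of 2 and 34 in WT and of 2 and 50 in CD169-DTR. The median macrophage held 22 and 19, and the median granulocyte 39.5 and 42. At least 8 of the 10 genes were found together in 5.34% of WT and 8.94% of CD169-DTR microglia and in 10.6% and 12.4% of macrophages.

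All 10 genes were lower in WT than in CD169-DTR microglia. Log2 ratios of WT over CD169-DTR ran from -0.72 for Dusp1 (interval -0.76 to -0.68) to -0.35 for Junb (-0.37 to -0.34), and each of the 10 intervals lay below 0. Across the 13164 genes with at least 30 UMIs in microglia of both libraries together, 37.7% were higher in WT and the median log2 ratio was -0.04, against a median of -0.48 for the 10 genes. At a log2 ratio of at least 0.5 in size, which is 1.41-fold, 4 of the 10 were lower in WT, where 4.54% of all genes were, and 0 were higher, where 3.92% of all genes were. These 4 were Dusp1, at 173 CPM in WT and 285 in CD169-DTR, Egr3 at 28.3 and 42.7 (log2 ratio -0.60, -0.70 to -0.49), Atf3 at 452 and 674 (-0.58, -0.60 to -0.55) and Ier2 at 265 and 380 (-0.52, -0.55 to -0.48). Nr4a1 (-0.49), Fosb (-0.46), Fos (-0.41), Jun (-0.40) and Egr1 (-0.39) were short of this fold. The same direction was seen in the share of thinned microglia with a UMI, which was lower in WT for each of the 10 genes.

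In macrophages 7 of the 10 genes were higher in WT and 3 were lower, where 43.5% of 11168 genes were higher. None reached the fold of 1.41 in either direction, which 9.63% of all genes did upwards and 9.97% downwards. Dusp1 was at 763 CPM in WT and 594 in CD169-DTR (log2 ratio 0.36, 0.32 to 0.41), Atf3 at 959 and 748 (0.36, 0.32 to 0.40), Junb at 1551 and 1266 (0.29, 0.26 to 0.32), and Jun at 2188 and 1799 (0.28, 0.26 to 0.31). Ier2 (0.24) and Fos (0.20) also had intervals above 0. Fosb was the only member of the 10 with an interval below 0 in macrophages (277 and 299, -0.11, -0.18 to -0.04), while the intervals of Egr1 (0.02), Nr4a1 (-0.06) and Egr3 (-0.10) held 0. The median of the 10 was 0.22, against -0.05 for all genes. Macrophages came from 3 clusters whose shares differed between the libraries. Cluster 4, led by Ly6c2, Plac8 and Chil3, held 46.4% of WT and 36.0% of CD169-DTR macrophages, cluster 3, led by Gpnmb and Ms4a7, held 44.6% and 43.5%, and cluster 15, led by Ear2 and Treml4, held 8.96% and 20.4%.

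**Figure D2:**
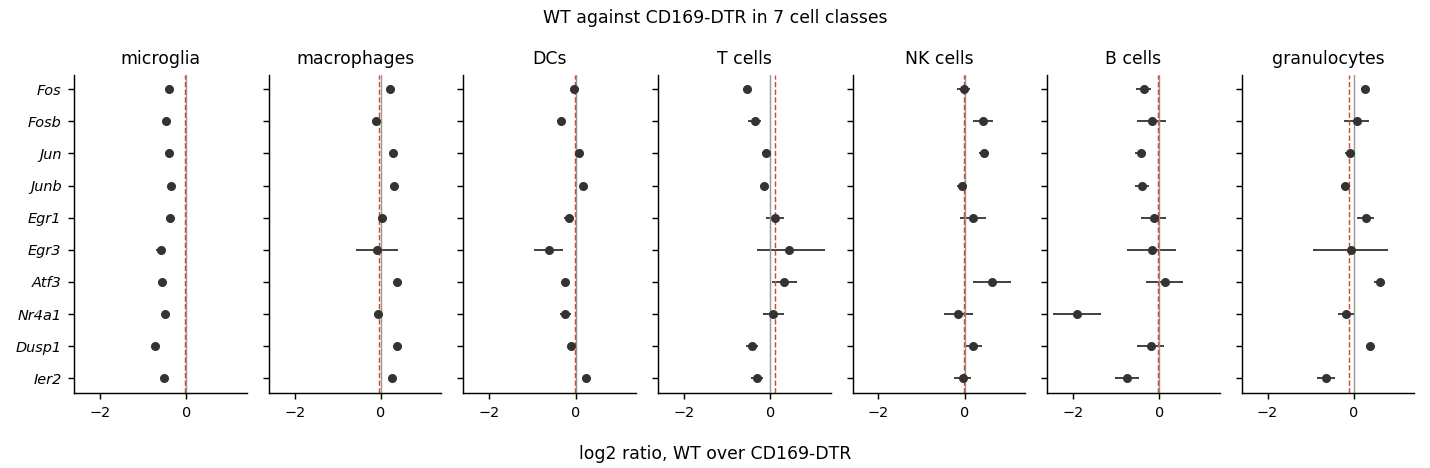
Log2 ratio of WT over CD169-DTR (x axis) for each of the 10 genes in 7 cell classes, with exact conditional 95% intervals for counting error; the solid line is 0 and the dashed line the median of all genes with at least 30 UMIs. In microglia all 10 points lie left of 0, from -0.72 to -0.35, and in macrophages 7 of 10 lie right of it, up to 0.36.

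The other immune classes were mixed, except B cells. In DCs 3 of 10 were higher in WT, where 47.3% of all genes were, and 1 passed the fold downwards, where 11.2% did: Egr3, at 18.9 CPM in WT and 29.1 in CD169-DTR (log2 ratio -0.63, -0.95 to -0.29). Ier2, Junb and Jun were the 3 higher ones, at ratios of 0.23, 0.16 and 0.08. In T cells 4 of 10 were higher, where 59.8% of all genes were, and Fos passed the fold downwards (656 and 953, -0.54, -0.63 to -0.45), where 7.11% of all genes did. Without the 3 cells of each library with most Fos, which held 6.10% and 15% of its UMIs, this ratio was -0.40 and short of the fold. Relative to the median of all genes, which was 0.10 in T cells, 2 of 10 were higher. In NK cells 5 of the 9 genes with enough UMIs were higher, where 48.9% of all genes were. Atf3 passed the fold upwards there, where 13.4% of all genes did, at 129 and 83.9 CPM (0.62, 0.20 to 1.07). This value rests on 275 and 54 UMIs, of which 29.1% and 33.3% came from 3 cells of each library, and it was -0.59 without the cells of the highest doublet scores.

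In B cells 9 of 10 were lower in WT, where 47.2% of all genes were higher. At the fold of 1.41, 2 were lower in WT, Nr4a1 and Ier2, which 15.6% of all genes were. Nr4a1 was at 61.6 CPM in WT and 230 in CD169-DTR B cells (35 and 154 UMIs, log2 ratio -1.90, -2.47 to -1.36), the largest ratio of the 10 genes in any of the 7 classes. Without the 3 cells of each library with most Nr4a1 it was -2.23 (-2.94 to -1.59). Nr4a1 was found in 21.7% of 69 WT and 37.8% of 111 CD169-DTR thinned B cells, with overlapping intervals (12.7 to 33.3% and 28.8 to 47.5%). Ier2 was at 301 and 507 (-0.75, -1.03 to -0.48). In granulocytes 5 of 10 were higher, where 40.4% of all genes were, and 7 of 10 relative to the median of all genes, which was -0.11. Atf3 passed the fold upwards (1749 and 1159, 0.59, 0.47 to 0.72), where 13.4% of all genes did, and Ier2 downwards (431 and 673, -0.64, -0.85 to -0.44), where 21.7% did.

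Endothelial and choroid plexus cells, non-immune cells of the same libraries, were compared in the same way, a choice made after the other values were seen. Endothelial cells (403 in WT and 279 in CD169-DTR), which line brain vessels, had 9 of 10 genes lower in WT, 8 of them with intervals below 0, where 46.7% of all genes were higher. Their median log2 ratio was -0.20, with Fosb at 466 and 627 CPM (-0.43) and Fos at 1561 and 1860 (-0.25). Choroid plexus cells (153 and 173) held little of the 10 genes in sum, at 505 CPM in WT and 802 in CD169-DTR, against 5293 and 7130 in microglia. There, 7 of 9 genes were lower in WT, where 39.1% of all genes were higher. In the free RNA of barcodes with 10 to 100 UMIs, each of the 10 genes was also lower in WT, where 29.6% of all genes were higher and the median of all genes was -0.24, from Dusp1 (465 and 575 CPM, -0.31) to Egr3 (17.1 and 35.2, -1.04). Sparser non-immune classes mostly went the other way. In pericytes (54 and 34 cells) all of the 10 but Atf3 were higher in WT, at 5316 and 3798 CPM in sum. A single WT pericyte held 241 of their 356 Fos UMIs. In glial or tumor cells (10 and 13) all but Atf3 and Nr4a1 were higher in WT, with Fos at 830 and 598 CPM. The part of preparation in these values was not tested.

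Depth moved with the direction in macrophages and not in microglia. Macrophages had a median depth of 7190 UMIs (WT) and 12070.5 UMIs (CD169-DTR), while microglia were close to each other at 7665 and 7868.5. In macrophages the summed level of the 10 genes fell with depth, in WT from 13000 CPM in cells of 1000 to 3000 UMIs to 5866 in cells of at least 20000, and in CD169-DTR from 12817 to 5330. Within cells of 5000 to 10000 UMIs (861 and 180 macrophages) 1 of the 9 genes counted was higher in WT, where 34.8% of all genes were, and the median log2 ratio was -0.13, against -0.15 for all genes. Between 10000 and 20000 UMIs (552 and 322 cells) 6 of 10 were higher, where 40.7% of all genes were, with a median of 0.12. From 20000 UMIs (83 and 129 cells) 7 of 10 were higher, where 55.9% of all genes were, with a median of 0.25. Below 3000 UMIs 4 of 9 were higher, where 51.8% of all genes were, and from 3000 to 5000 UMIs 5 of 9, where 49.9% were. In the 5000 to 10000 range Dusp1 was at -0.34, Atf3 at -0.06 and Junb at 0.09. Nr4a1 was at -1.05 there and at 1.22 from 20000 UMIs, and Fosb was lower in WT in all 5 ranges. The higher level of most members in WT macrophages was thus not found at each depth.

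In microglia no member was higher in WT in any of the 5 depth ranges, with 9 genes counted in the lowest range and 10 in the others. From the lowest range upwards, 50.2%, 49.1%, 40.7%, 37.4% and 40.2% of all genes were higher in WT. The median log2 ratio was -1.30 in cells of 1000 to 3000 UMIs (194 and 153 cells), -0.32 from 3000 to 5000, -0.60 from 5000 to 10000, -0.42 from 10000 to 20000 and -0.38 above. Dusp1 ranged from -1.48 to -0.46 over these ranges, Atf3 from -1.30 to -0.42 and Fos from -0.69 to -0.22.

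**Figure D3:**
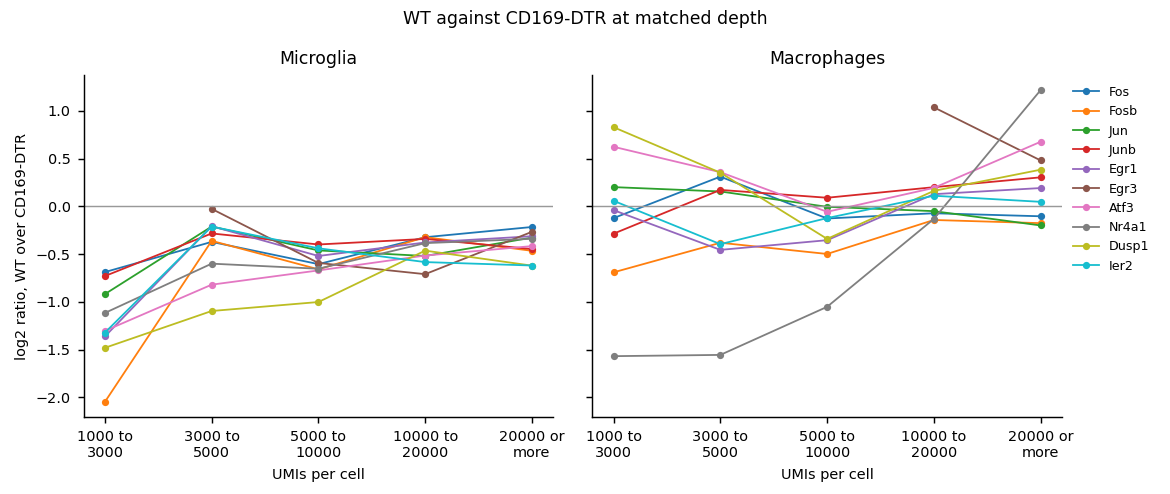
Log2 ratio of WT over CD169-DTR (y axis) for each of the 10 genes in 5 ranges of UMIs per cell, in microglia and in macrophages; points with under 30 UMIs are left out and no intervals are drawn. All microglial points lie below 0, while macrophage points lie on both sides and, at 5000 to 10000 UMIs, 8 of 9 lie below 0.

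The mitochondrial share moved with the level in microglia. Their median share was 4.21% in WT and 4.44% in CD169-DTR. The summed level of the 10 genes was 7703 CPM in WT and 13900 in CD169-DTR microglia with under 2% mitochondrial UMIs, 6678 and 9945 at 2 to 4%, 4583 and 6295 at 4 to 6%, and 3588 and 3782 at 6% or more. No member was higher in WT in the 3 lower ranges, with medians of -0.88, -0.59 and -0.55. At 6% or more 2 of 10 were higher and the median was -0.13. Over the 4 ranges 34.2% to 46.9% of all genes were higher in WT. Over these 4 ranges the difference between the libraries was widest where the level was highest. In macrophages the level rose with the mitochondrial share, from 7599 to 11302 in WT and from 7189 to 8887 in CD169-DTR, and 6 to 9 of the genes counted were higher in WT in each range, where 42.6% to 51.6% of all genes were.

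Among the 9 clusters of microglia, cluster 8 stood apart in the level of the 10 genes, at 20425 CPM in WT and 23554 in CD169-DTR. It was led by Il1a, Dusp8, Atf3, Nlrp3 and Egr3, of which Atf3 and Egr3 are members, although none of the 10 was used to find clusters. It held 294 WT and 491 CD169-DTR cells, which is 6.18% (5.51 to 6.90%) and 9.11% (8.36 to 9.91%) of microglia. Its median log2 ratio was -0.20, close to that of cluster 2 (-0.21). It lay between those of clusters 17 (-0.58) and 0 (-0.43) on one side and cluster 12 (-0.01) on the other. In the other 8 clusters the summed level lay between 2727 and 6798 in WT and between 3325 and 8379 in CD169-DTR. Of the 10 genes, 0 or 1 was higher in WT in 8 of the 9 clusters, where 38.7% to 49.3% of all genes were. The exception was cluster 12, led by Cd5l, Igf1, Spp1 and Apoe, where 5 of 10 genes and 52.6% of all genes were higher, the summed levels were 3617 and 3509, and Fos had a ratio of 0.37. The makeup of microglia also differed elsewhere. Cluster 0, at 6798 and 8379 CPM in sum, held 22.7% of WT and 31.3% of CD169-DTR microglia, and cluster 5, at 2935 and 3450 CPM, held 14.5% and 9.15%. Without cluster 8 all 10 genes were still lower in WT, with a median of -0.44, and with each of the 9 clusters at the same weight all 10 were lower, with a median of -0.30.

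In macrophages all 10 genes were higher in WT in cluster 3, where 63.7% of all genes were, with Dusp1 at 0.72 and Nr4a1 at 0.62. The median depth in this cluster was 4710 UMIs in WT and 16451 in CD169-DTR. In cluster 4, with medians of 8703.5 and 11584 UMIs, 6 of 10 were higher, where 34.0% of all genes were, and the median log2 ratio was 0.12. In cluster 15, with similar medians of 8230 and 7896.5 UMIs, 4 of the 9 genes counted were higher, where 41.5% of all genes were, and the median was -0.05, against -0.07 for all genes. Without cluster 3, 5 of 10 genes were higher in WT macrophages, with a median of -0.02.

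**Figure D4:**
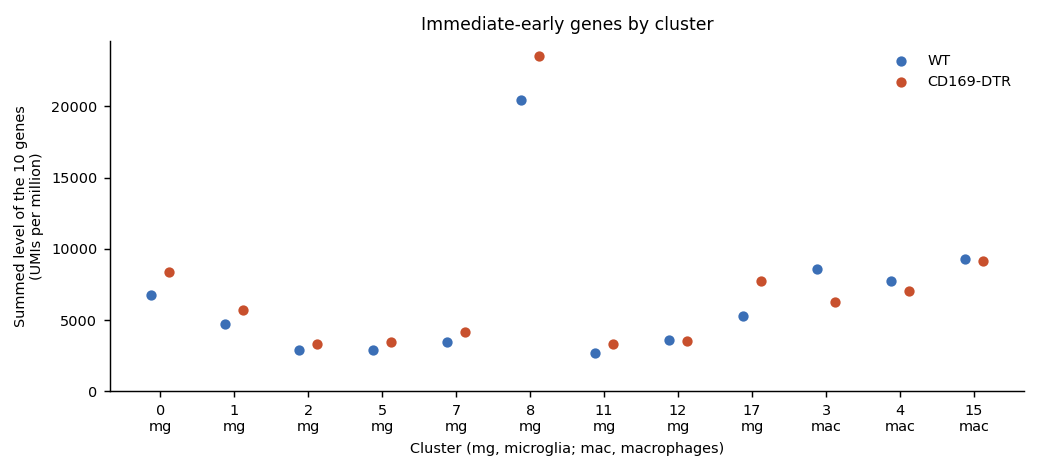
Summed level of the 10 genes (CPM) in the 9 microglial (mg) and 3 macrophage (mac) clusters of the WT and CD169-DTR libraries. Cluster 8 is at 20425 and 23554, and the other microglial clusters are at 8379 or less.

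Microglia and macrophages were also compared within each library. In WT 2 of 10 genes were higher and 8 were lower in microglia than in macrophages, where 65.3% of all genes were higher, with a median log2 ratio of -0.51, and Egr1 and Egr3 were the exceptions. In CD169-DTR 6 of 10 were higher in microglia, where 67.5% of all genes were, with a median of 0.10 and, for Fosb, an interval that held 0. The median of all genes was itself higher in microglia, by a log2 ratio of 0.37 in WT and 0.39 in CD169-DTR, and relative to it 2 of 10 in WT and 3 of 10 in CD169-DTR were higher. Fos, Dusp1, Nr4a1 and Atf3 were lower in microglia in both libraries. Jun, Junb, Fosb and Ier2 were lower in microglia in WT and, before this centring, higher in CD169-DTR.

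Other genes of the same pathways were read from 8 lists, which were chosen with earlier results of these data known. Their counts are to be read against 37.7% of all genes higher in WT in microglia and 43.5% in macrophages, with medians of -0.04 and -0.05. Of 23 other rapidly induced genes 1 was higher in WT microglia, with a median log2 ratio of -0.35, and 20 were higher in WT macrophages, with a median of 0.19. Klf4, a transcription factor, was at 145 CPM in WT and 241 in CD169-DTR microglia (-0.73), Ier3 was at 239 and 339 (-0.50), Gadd45b was level at 130 and 131 (-0.01), and Ier5l was the only higher gene (0.20). In macrophages Gadd45b was at 513 and 343 (0.58) and Zfp36l2, which destabilises mRNA, at 420 and 288 (0.55), while Zfp36l1 (-0.46) and Myc (-0.72) were lower in WT.

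Of 13 other AP-1 family genes 4 were higher in WT microglia, near the share over all genes, and 11 in WT macrophages, with medians of -0.20 and 0.21. Fosl1 was lower in WT in both, at 0.69 and 2.20 CPM in microglia (-1.67) and 2.84 and 5.07 in macrophages (-0.84). Batf2 was higher in WT in both (0.60 and 1.17). In microglia Fosl2 was at -0.51 and Nfe2l2, the regulator of antioxidant genes, at 0.05, and in macrophages Batf was at -0.04 and Mafk at 0.50. Of the other EGR and NR4A genes 1 of 6 was higher in WT microglia and 5 of 5 in WT macrophages. Egr4 was at 2.15 and 4.41 in microglia (-1.04) and Nr4a2 at 4.71 and 6.61 (-0.49), with Nab1, a corepressor of EGR proteins, at -0.10 and Nr4a3 at 0.12. In macrophages Nr4a2 was at 60.5 and 45.3 (0.42) and Egr2 at 24.4 and 20.5 (0.25), with Nab1 at 0.22 and Nab2 at 0.01.

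Of the genes that, like Dusp1, feed back on MAP kinases, 0 of 9 were higher in WT microglia, and their median was -0.37. Dusp5 (-0.56) and Spry1 (-0.48) had the lowest ratios and Rasa2 (-0.06) and Dusp6 (-0.09) the highest. In macrophages 6 of 10 were higher, with Dusp2 at 224 and 141 CPM (0.67) and Spry2 at 0.35 on 29 and 12 UMIs, and Dusp16 (-0.76) and Spred1 (-0.21) lowest. The kinases and factors that carry the signal to SRF and CREB were nearer to the median of all genes, with medians of -0.08 in microglia (4 of 18 higher) and 0.05 in macrophages (11 of 18 higher). Their ratios ran from Map2k3 (-0.44) and Map2k6 (-0.38) to Mapk9 (0.06) and Elk3 (0.10) in microglia, and from Map2k6 (-0.52) and Rps6ka1 (-0.36) to Mapk9 (0.59) and Mapk8 (0.61) in macrophages.

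The list of 11 NF-kB feedback genes holds inhibitors of NF-kB and also genes of its subunits, Relb, Nfkb1 and Nfkb2. Of the 11, 3 were higher in WT microglia (median -0.13), near the share over all genes, and 11 in WT macrophages (median 0.24). Nfkbid was at 62.8 and 89.0 CPM in microglia (-0.50) and at 73.9 and 50.1 in macrophages (0.56). Nfkbiz was at -0.49 in microglia and 0.05 in macrophages, Nfkb2 at 0.09 and 0.42, Tnip1 at 0.07 in microglia and Socs3 at 0.13 in macrophages. Of 12 cytokines 3 were higher in WT microglia (median -0.25) and 7 in WT macrophages (median 0.20). Il1a, an alarm cytokine that also led cluster 8, was at 200 and 284 in microglia (-0.50), and Cxcl1, a chemokine that recruits granulocytes, at 0.462 and 1.23 (-1.41) on 20 and 64 UMIs. Ccl2 (0.13) and Cxcl16 (0.43) were the highest there. In macrophages Cxcl1 was at 11 and 65.9 (-2.59) and Cxcl2 at 463 and 787 (-0.77), while Csf1 (0.55) and Il6 (1.14, on 134 and 32 UMIs) were higher in WT.

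Heat shock genes respond to protein damage and to heat. Of 13 such genes 3 were higher in WT microglia and 4 in WT macrophages, neither far from the share over all genes. Their medians were -0.15 and -0.05, against -0.04 and -0.05 for all genes. Hspa1b, an inducible chaperone that shares much of its sequence with Hspa1a, was higher in WT in both, at 417 and 249 CPM in microglia (0.75) and at 1107 and 651 in macrophages (0.77). Dnajb1 (-0.55) and Dnajb4 (-0.43) were lowest and Hspe1 (0.09) was second highest in microglia. Hsph1 (-0.30) and Hspd1 (-0.28) were lowest and Dnaja1 (0.39) was second highest in macrophages. In endothelial cells 9 of 13 heat shock genes were higher in WT, with a median of 0.02, where 9 of the 10 immediate-early genes were lower.

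Depth moved with the counts of other lists in macrophages too. Within cells of 5000 to 10000 UMIs 34.8% of all genes were higher in WT macrophages, with a median log2 ratio of -0.15, and 40.7% in WT microglia, with a median of -0.04. In this range 9 of the 23 other rapidly induced genes were higher in WT macrophages, with a median of -0.17, which is near that of all genes, and 5 of 12 other AP-1 family genes, with a median of -0.03. There, 5 of 11 NF-kB feedback genes were higher, with a median of -0.04, and 1 of 8 MAP kinase feedback genes, with a median of -0.25. Cytokines (8 of 12, median 0.03) and the other EGR and NR4A genes (3 of 5, median 0.09) were mostly higher, with medians near 0. In microglia of the same depth 1 of 23 other rapidly induced genes was higher (median -0.32), 1 of 9 MAP kinase feedback genes (median -0.40), 3 of 11 cytokines (median -0.18) and 2 of 13 heat shock genes, whose median was -0.35 there.

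**Figure D5:**
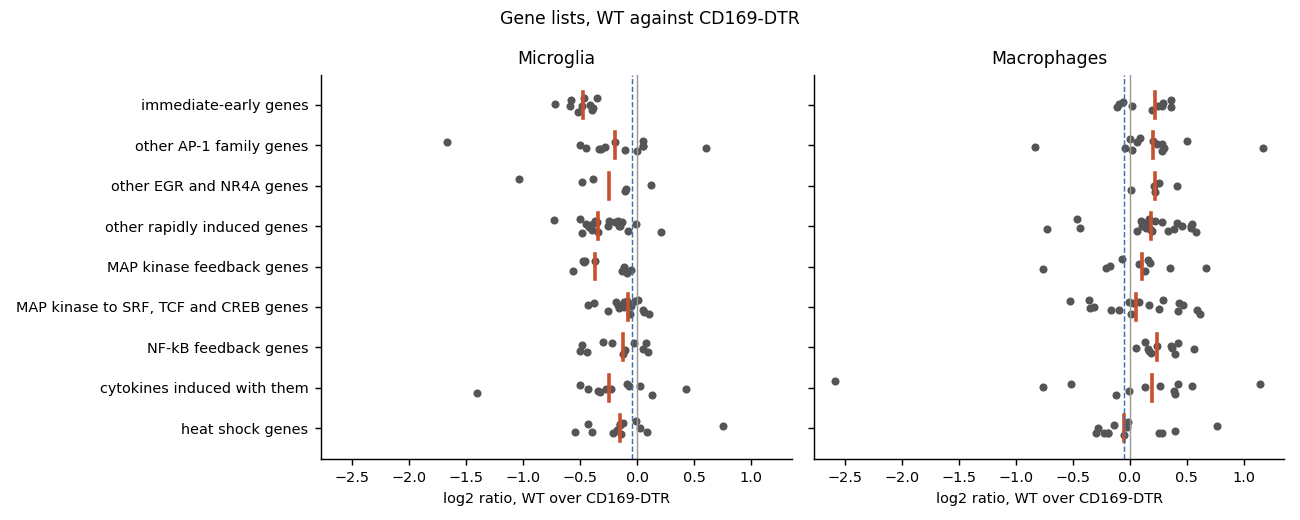
Log2 ratio of WT over CD169-DTR (x axis) of each gene of 9 lists in microglia and macrophages; each point is a gene with at least 30 UMIs, the red bar is the list's median, the solid line 0 and the dashed line the median of all genes. The immediate-early genes have a median of -0.48 in microglia and 0.22 in macrophages, and the heat shock genes of -0.15 and -0.05.

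Pairs of the 10 genes were compared within single cells. Over thinned microglia all 45 pairs had a Pearson r above 0 between log-normalised counts, with a median of 0.27 in 4566 WT and 0.29 in 5235 CD169-DTR cells and a maximum of 0.46 and 0.48 for Atf3 with Ier2. Over macrophages the median was 0.13 (1956 cells) and 0.16 (686 cells), with 42 and 44 of 45 pairs above 0. Cells of a library share their preparation and counts this sparse lower r, so these values are a description. Pairs of other genes were not read, so how usual such counts of pairs are is unknown. Clusters that differ in level were pooled within each class. Among the other genes most like the sum of the 10 over microglia were the histone demethylase gene Kdm6b (r 0.50 in WT and 0.53 in CD169-DTR), Nfkbiz (0.47 and 0.49), the growth inhibitor Btg2 (0.47 and 0.50) and Rhob, a small GTPase (0.43 and 0.46). Over 16 points, 8 classes with plasmacytoid DCs in 2 libraries, the mean pattern of the 10 was most like Slc16a3, a lactate transporter (r 0.94), Ccrl2 (0.93), Mbnl2 (0.93), Mcl1, a survival factor (0.93), and Ets2 (0.93), among 12680 genes. The members themselves had r from 0.90 (Junb) down to 0.30 (Jun) and -0.07 (Fosb) with that mean, and points of the same class are not independent.

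Macrophages with a Siglec1 UMI, as a measure of the cells the model depletes, were set beside those without, with both Siglec1 and the 10 genes read from cells thinned to 3000 UMIs. A Siglec1 UMI was found in 12.3% of WT (10.9 to 13.9%) and 3.06% of CD169-DTR macrophages (1.90 to 4.64%), with median depths of 8076 and 12329 UMIs. In T cells, which should lack it, it was found in 0.472% (0.057 to 1.69%) and in 0 of 205 cells (0 to 1.78%), at 6841 and 6828 UMIs. In choroid plexus cells it was in 0 of 144 and in 0.592% (0.015 to 3.25%), at 15506.5 and 12726 UMIs. The CD169-DTR share thus had an interval that overlapped the one in choroid plexus cells, and some of its 21 cells may hold the UMI as background. Before thinning, macrophages with and without this UMI had median depths of 6337 and 8261 UMIs in WT. In CD169-DTR these were 10618 and 12361. In WT (241 and 1715 cells) 3 of 10 genes were lower in cells with Siglec1, where 54.5% of all genes were higher, and 2 of the 3 had intervals below 0. They were Egr1, at 177 and 220 CPM (log2 ratio -0.31, -0.59 to -0.05), and Nr4a1, at 112 and 170 CPM (-0.60, -0.95 to -0.27). Jun was at 2936 and 2488 CPM (0.24, 0.17 to 0.31) and Fos at 2097 and 1832 CPM (0.19, 0.12 to 0.27), the 2 members with intervals above 0. In CD169-DTR only 21 of 686 cells held a Siglec1 UMI. There, 5 of 10 were lower, Egr3 with 0 UMIs in those cells among them, where 42.1% of all genes were higher. Fosb, on 10 UMIs, was the member with an interval below 0 (-1.01, -2.07 to -0.12), and Atf3 (0.72), Fos (0.30) and Jun (0.30) had intervals above 0. The direction depended on how the cells were chosen. With Siglec1 read from all UMIs of a cell, 8 of 10 were lower in each library, where 51.5% (WT library) and 44.4% (CD169-DTR library) of all genes were higher in cells with Siglec1, on 471 WT and 91 CD169-DTR cells with Siglec1, whose median depths were 7964 and 16487 UMIs against 8101 and 12060 in those without. Nr4a1 was lower in cells with Siglec1 in both libraries as read from thinned cells, although its interval in CD169-DTR held 0 (-0.78, -1.92 to 0.15).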

How the data were processed

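RNA of sorted CD45.2-positive cells was measured in 2 droplet libraries, 1 WT and 1 CD169-DTR, each pooled from 3 mice. The deposited values are UMI counts, which the authors obtained with Cell Ranger (3.1.0 in the file headers) on mm10, for all barcodes and without normalization or cell calling. Their own filtering and clustering are not part of the deposited counts. The 10 genes, the other lists, the markers and the alternatives were chosen with earlier results of these data known.

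A barcode was kept from 1000 UMIs upwards if its mitochondrial share did not exceed 17%, a limit that removed 249 WT and 218 CD169-DTR barcodes. Counts were log-normalised to 10000 and integrated with Seurat 5.3.0 (R 4.3.3) on 50 dimensions from 2000 variable features, without the 116 listed genes. Clusters were found on 30 dimensions at resolution 1. Doublets were not removed. Scrublet (scanpy 1.11.5) called 2.75% of WT and 0.0132% of CD169-DTR cells, so it did not work in the second library, and an alternative left out the 8% highest scores of each. A cluster took the class with most markers, given at least 3 markers and 33.3% of the list, each with at least 10 UMIs and 25% of its level in the cluster holding most of it. It stayed unnamed if markers of another class outnumbered its own among its 10 leading genes, or if it was shallow and these held none. The data had been seen when these limits were set.

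UMIs were summed per class and library and scaled to 1000000. Ratios have exact conditional, levels exact Poisson and shares exact Clopper-Pearson 95% intervals, for counting error only. A ratio was counted if both libraries together held 30 UMIs or more. Shares were taken after thinning to 3000 UMIs. No test was made, and so no p is given. The 10 genes are named, and of each other list the 2 highest and 2 lowest ratios in microglia and in macrophages, the 5 genes most like them in each of 2 ways (1 of which is not reported here), and markers and Siglec1 for labels. Free RNA was taken as the barcodes of 10 to 100 UMIs and scaled by microglial markers in lymphocytes, without the tenth of lymphocytes that held most of them. Promoter windows are RefSeq's. Ratios and thinning were tested on simulated data (python 3.11.15, numpy 2.4.6, scipy 1.17.1, pandas 2.3.3, matplotlib 3.10.9).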

Additional observations from a re-analysis of the deposited data

Results flagged for a closer look

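Atf3 differed between the libraries in opposite directions in different classes by at least 1.41-fold each way, and this difference between classes was not tested. It was lower in WT in microglia (log2 ratio -0.58) and higher in granulocytes (0.59), which are 1.17 apart on the log2 scale. It was also higher in NK cells (0.62), which is 1.2 apart from microglia, but this ratio changed sign under 3 alternatives and rests on 275 and 54 UMIs.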

How the results depend on the processing

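No paired analysis was possible because each group is 1 library, and for the same reason no replicate could be left out. Depth sets the precision: ratios from under about 100 UMIs have wide intervals, and the spread between mice is unknown. All 10 genes were lower in WT microglia under each of 16 alternatives. Members higher in WT in NK cells (4 to 5 of 9), in granulocytes (5 to 7) and, in WT, in microglia over macrophages (2) moved by less than 1.5 times. In macrophages the count of members higher in WT was 7, and 1 within cells of 5000 to 10000 UMIs. In DCs it was 3, and 5 without integration and 0 within cells of 5000 to 10000 UMIs. In T cells it was 4, and 7 without the highest doublet scores and 2 each without integration, centred on the median of all genes, and with a total without mitochondrial and ribosomal genes. In B cells it was 1, and 2 with each cell at the same weight and 3 within cells of 5000 to 10000 UMIs. In CD169-DTR, 6 members were higher in microglia than in macrophages, and 3 when centred on the median of all genes. Members lower in macrophages with Siglec1 were 3 in WT and 5 in CD169-DTR, and 8 and 8 with Siglec1 read from all UMIs. Atf3 in NK cells (0.62) was -0.59 without the highest doublet scores, -0.037 with each cell at the same weight and -0.28 within cells of 5000 to 10000 UMIs. The cause was not tested. Of 89 single log2 ratios 56 kept their sign in every alternative, and 868 of 1257 alternative values lay inside the interval of the value reported. Equal weights for clusters were not run where a class held 1 usable cluster (T, NK and B cells and granulocytes). The alternatives with cells of 10000 to 20000 UMIs, without clusters 8 or 3, and with Siglec1 read from all UMIs were chosen after seeing the data.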
